A study of Mus musculus with 15 samples.

Results

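The genes of the proteins that build the cytosolic ribosome were followed in mouse bone marrow. They were taken as the protein-coding genes with a standard large-subunit (Rpl) or small-subunit (Rps) symbol, plus Rpsa. This rule found 80 of the 38315 genes in the table, 49 of the large and 31 of the small subunit. All but Rpl10l and Rpl39l passed the filter on low values (a normalized count of at least 10 in at least 4 samples), so 78 were tested among 18941 genes. Bulk total RNA was sequenced from 15 marrow samples. AML marrow (n = 7) came from mice with acute myeloid leukaemia of the genotype NUP98-NSD1/FLT3-ITD. NUP98-NSD1 joins part of a nuclear pore protein to a methyltransferase acting on histones, and FLT3-ITD is an activating form of a cytokine receptor kinase with a duplicated stretch. The controls were wild-type whole marrow (n = 4) and wild-type lineage-negative marrow (n = 4), from which cells bearing markers of mature lineages are removed. The labels give neither how the 2 alleles are driven nor the age, sex or strain of the mice. AML and whole marrow were not sorted, as far as the labels say.

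The cytosolic ribosome is made of a small subunit, which reads the mRNA, and a large subunit, which joins amino acids, and each holds 1 copy of nearly every ribosomal protein. Most of these mRNAs start with a C followed by a run of pyrimidines, the 5′ terminal oligopyrimidine (TOP) motif, through which mTORC1 and Larp1 control their translation. In blood formation the family is known for Diamond-Blackfan anaemia and for the 5q- syndrome, in which loss of 1 copy of a ribosomal protein gene impairs red cell production.

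Values below are rescaled counts. These are the authors' normalized counts multiplied by 1 factor per library, computed here by the trimmed mean of M values (TMM). The estimated depth was 20.3 to 35.1 megareads in AML, 20.3 to 28.1 megareads in lineage-negative marrow and 11.4 to 17.2 megareads in whole marrow. Whole marrow 1 stood apart, with the lowest depth and a rescaling factor of 2.12 where the other 14 libraries had 0.839 to 1.27. This factor also corrects for the size of the library total. The total over all genes was 10221000 normalized counts in whole marrow 1 and 17878800 to 29658600 in the others. The whole marrow libraries also differed as a group in low-level signal. Olfactory and vomeronasal receptor genes, known from sensory neurons, had a mean normalized count of 6.31 to 11.9 there, against 0.325 to 3.34 in AML and lineage-negative libraries. From 7.12% to 15.7% of all genes were at 0 in whole marrow, against 23.6% to 41.4% elsewhere. These differences accompany every comparison with whole marrow, and their part in the results was not tested. AML 4 also stood apart, with 30.2% of its total in the table's miscellaneous RNA class and 58.1% in protein-coding genes. The corresponding ranges in the other AML libraries were 6.13% to 18.1% and 67.2% to 81.9%. The labelled cell types were checked with marker lists. Haemoglobin genes held 7.24% to 10.6% of whole marrow libraries, 0.00127% to 0.111% of AML and 0.0119% to 0.203% of lineage-negative libraries. The summed level of 10 mature neutrophil genes was 363464 to 1198560 in AML, 854782 to 1411180 in whole marrow and 1797 to 16240 in lineage-negative marrow. No gene of these lists was at 0 throughout a group. In bulk RNA, fewer cells of a type and less RNA per cell cannot be told apart. The sample descriptions give each AML library a code of its own, without saying what it stands for. Beyond these codes and the numbered sample titles, nothing says that replicates came from separate animals. The p-values therefore measure the spread between these samples.

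Ribosomal protein transcripts took the largest share of the RNA in lineage-negative marrow, an intermediate share in AML and the smallest in whole marrow. The 80 genes held 1.58%, 1.87%, 1.78%, 2.14%, 1.99%, 1.91% and 1.88% of the library total in AML 1 to 7. They held 1.23%, 1.37%, 1.28% and 1.21% in whole marrow 1 to 4, and 3.15%, 3.70%, 3.17% and 3.06% in lineage-negative marrow 1 to 4. The 3 groups did not overlap. With haemoglobin left out of the total, the mean in whole marrow was 1.39% instead of 1.27%, and its highest library, at 1.48%, was still under the lowest AML library. Counted within protein-coding genes alone, the mean share in the 7 AML libraries was 2.61% ± 0.518 (SD). It was 1.48% ± 0.0948 for whole marrow and 3.97% ± 0.315 for lineage-negative marrow (SD, n = 4 each). The other 6 AML libraries lay between 2.09% and 2.78%. On that scale AML 4, at 3.68%, came close to the lowest lineage-negative library, at 3.71%. The summed neutrophil and B-cell markers had the opposite order of group means, highest in whole and lowest in lineage-negative marrow, whereas monocyte markers were highest in AML. The part of these cell types in the result was not tested.

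**Figure D1:**
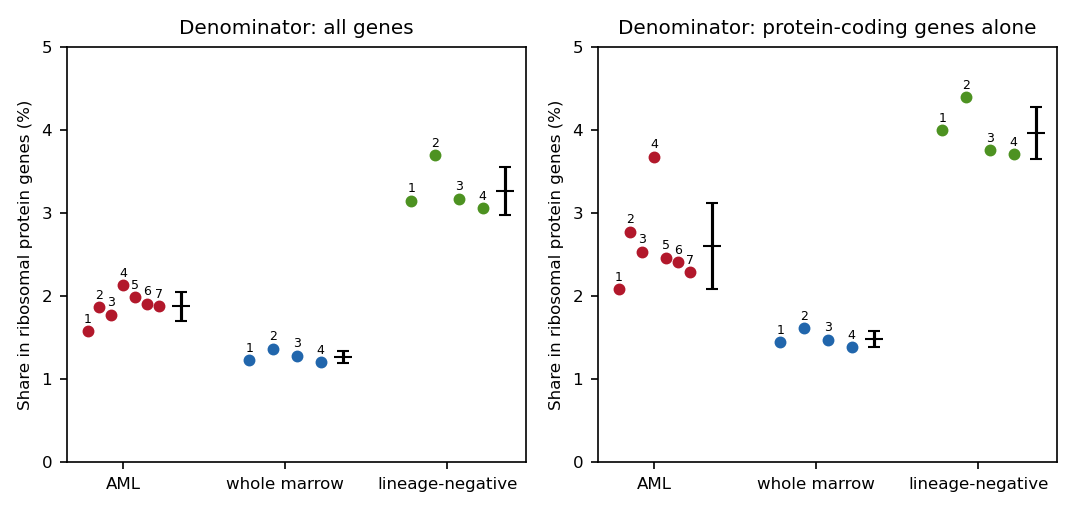
Share of each library in the 80 cytosolic ribosomal protein genes, in percent of all genes (left) and of protein-coding genes (right); points are libraries with their replicate number, and bars are the mean and SD of each group. AML lies between whole marrow, at 1.21% to 1.37% of all genes, and lineage-negative marrow, at 3.06% to 3.70%.

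Against whole marrow, ribosomal protein genes were higher in AML as a family. Of the 78 tested, 48 rose and none fell at an adjusted p under 0.05 (limma, Benjamini-Hochberg over all 18941 genes), where 17.9% of all genes were called higher and 20.4% lower. A positive difference, called or not, was seen for 76 of the 78, all but Rpl3 and Rpl11. The median log2 difference was 0.55, a 1.46-fold difference, against 0.0066 over all genes. Both subunits took part, with 28 of 47 large-subunit and 20 of 31 small-subunit genes called, at medians of 0.55 for each. The differences were of modest size, and only Rps21, Rps14 and Rps10, as single rows, passed 2-fold. Without whole marrow 1 the number called higher was 33. Without AML 4, whole marrow 1 and lineage-negative 1 together it was 40, at a median of 0.44. On the authors' own scaling the median of all genes in this comparison was 0.67, and the members lay 0.56 above it. On that scale 51.5% of all genes were called higher and 12% lower. With quantile scaling these shares were 24.3% and 18.1%, and with TMM over all rows 26.7% and 17.5%, and no member was lower under any of the 3.

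Rps21, a protein of the small subunit, had the highest rise. It ranged from 1396 to 2671 in AML with a median of 1533, and was 720.4, 980.5, 761 and 622 in whole marrow. Every AML library exceeded every whole marrow library, and the log2 difference was 1.19 ± 0.25 (SE; adjusted p = 0.00121, limma). In lineage-negative marrow Rps21 was 715, 2310.3, 1645 and 1558, so that AML overlapped it, and the difference of 0.27 did not pass the test (adjusted p = 0.386, limma).

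Rps14, the small-subunit gene lost in the human 5q- syndrome, ranged from 9113 to 23438 in AML, with a median of 13630.3. It was 4695, 8196, 7126 and 6259.6 in whole marrow, below all 7 AML libraries, and 13983, 14077, 10919.9 and 8535 in lineage-negative marrow. AML exceeded whole marrow by 1.07 ± 0.23 (log2, SE; adjusted p = 0.00125, limma) and did not pass the test against lineage-negative marrow (0.22, adjusted p = 0.44).

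Rplp2, an acidic protein of the stalk that recruits elongation factors, varied least among these. It ranged from 2147 to 2660.0 in AML with a median of 2447, and was 1414, 1279, 1094 and 1201 in whole marrow. The groups did not overlap, at a difference of 0.95 ± 0.13 (log2, SE; adjusted p = 1.86e-05, limma). Its lineage-negative values were 1763, 3056, 2305 and 2264, on both sides of the AML range. A named pseudogene of Rplp2, annotated as protein-coding, held 73.3% of the joint value of gene and copy. With it added the difference from whole marrow was 0.77 ± 0.25 (log2, SE; adjusted p = 0.0205, limma).

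Rps9 and Rps10, both of the small subunit, were also higher in AML than in whole marrow. Rps9 had a mean of 24824 ± 8323 in AML (SD, n = 7), 12628 ± 1749 in whole marrow and 21042 ± 8144 in lineage-negative marrow (SD, n = 4 each). AML 4, at 42197, was far above the other AML libraries, and the log2 difference from whole marrow was 0.93 ± 0.24 (SE; adjusted p = 0.0053, limma). Rps10 had a mean of 2377 ± 493 in AML, 1197 ± 437 in whole marrow and 2608 ± 879 in lineage-negative marrow, and exceeded whole marrow by 1.05 ± 0.26 (log2, SE; adjusted p = 0.00389, limma). Its lowest AML library, at 1592, lay just under whole marrow 2, at 1643.

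Lineage-negative marrow held the highest levels of the family. Of the 78 genes, 63 were higher there than in whole marrow, with 24.7% of all genes called higher, and 1, the low-level paralog Rpl3l, was lower, with 31.5% called lower. These shares of all genes were 44.3% and 18.9% on the authors' own scaling and 35.8% and 25.3% with quantile scaling. The median difference was 0.88 on the log2 scale, a 1.84-fold difference, where the median of all genes was −0.10. By this comparison 21 members passed 2-fold. Rpl12, which sits at the base of the stalk, was largest with 1.48, followed by Rpl14 with 1.38, Rpl27 with 1.33 and Rps2 with 1.32. At the other end, among members with a mean of at least 100, Rpl23a differed by 0.10, Rpl7a by 0.44, Rps27l by 0.47 and Rps27a by 0.49. Of these 4, as single rows, Rps27a alone passed the test (adjusted p = 0.0473, limma), and 15 alternatives ended its call. Both ends of this ranking moved when the values of named pseudogenes were added to their genes. Rpl27 then fell to 0.62 and kept its call, at −0.23 relative to the mean of the members (adjusted p = 0.28, limma). Rpl23a (adjusted p = 0.0352, limma) and Rpl7a then passed the test. Without lineage-negative 2, which lay above its group mean for 70 of the 78 genes, 49 members were called higher. The summed level of 8 stem and progenitor genes was 23622 to 29428 in lineage-negative marrow, 6332 to 6835 in whole marrow and 3692 to 8652 in AML, and its part in these results was not tested.

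Between AML and lineage-negative marrow the family differed less, and mostly downwards in AML. Here 19 members were lower in AML, 14 of the large and 5 of the small subunit, and 1 was higher, the low-level paralog Rpl3l. Over all genes 24.8% were called lower and 26.5% higher. The 19 are 24.4% of the 78, about the share of all genes called lower. The median of the family was −0.27 against 0.05 over all genes, and 66 of the 78 had a negative difference. The count rested on single libraries: it was 11 without lineage-negative 2 and 28 without lineage-negative 1. With AML 4, whole marrow 1 and lineage-negative 1 left out together it was 33. The other members called lower, at −0.37 to −0.69, included Rpl4, Rpl21, Rpl29, Rpl36a, Rpl13, Rpl8, Rps6, Rpl6, Rpl22 and Rps19, besides those described next.

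Rpl12 showed the clearest separation. It was between 296 and 509 in AML with a median of 403, and 915, 1024, 1039.9 and 894 in lineage-negative marrow, far above every AML library. Whole marrow, at 329, 327, 365 and 363, lay within the AML range. The log2 difference from lineage-negative marrow was −1.26 ± 0.14 (SE; adjusted p = 7.2e-07, limma) and that from whole marrow 0.22 ± 0.14 (adjusted p = 0.213). Over all alternatives tried the former stayed between −1.33 and −1.18 and kept its call.

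Rpl14, of the large subunit, had 13793, 8609, 6545 and 8630.4 in lineage-negative marrow. It ranged from 3798 to 6861 in AML, so that AML 4 alone exceeded the lowest of these. The difference was −0.92 ± 0.21 (log2, SE; adjusted p = 0.00124, limma). Rps2, at the mRNA channel of the small subunit, was 22729, 22110.3, 17584 and 17990.3 in lineage-negative marrow and 8529 to 16486 in AML, with no overlap. It differed by −0.83 ± 0.17 (log2, SE; adjusted p = 0.000439, limma).

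Rpl5, which with Rpl11 and 5S rRNA forms a particle that can bind and inhibit Mdm2, was 556, 745, 722 and 633 in lineage-negative marrow. Its AML values ran from 333 to 471, all lower, and the difference was −0.67 ± 0.12 (log2, SE; adjusted p = 0.000125, limma). Whole marrow had 360.1, 367, 376 and 347, within the AML range. Rpl11 differed from lineage-negative marrow by −0.90 ± 0.36 (log2, SE; adjusted p = 0.0464, limma), but its libraries spread from 275 to 1038 in AML, and 13 alternatives ended its call.

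**Figure D2:**
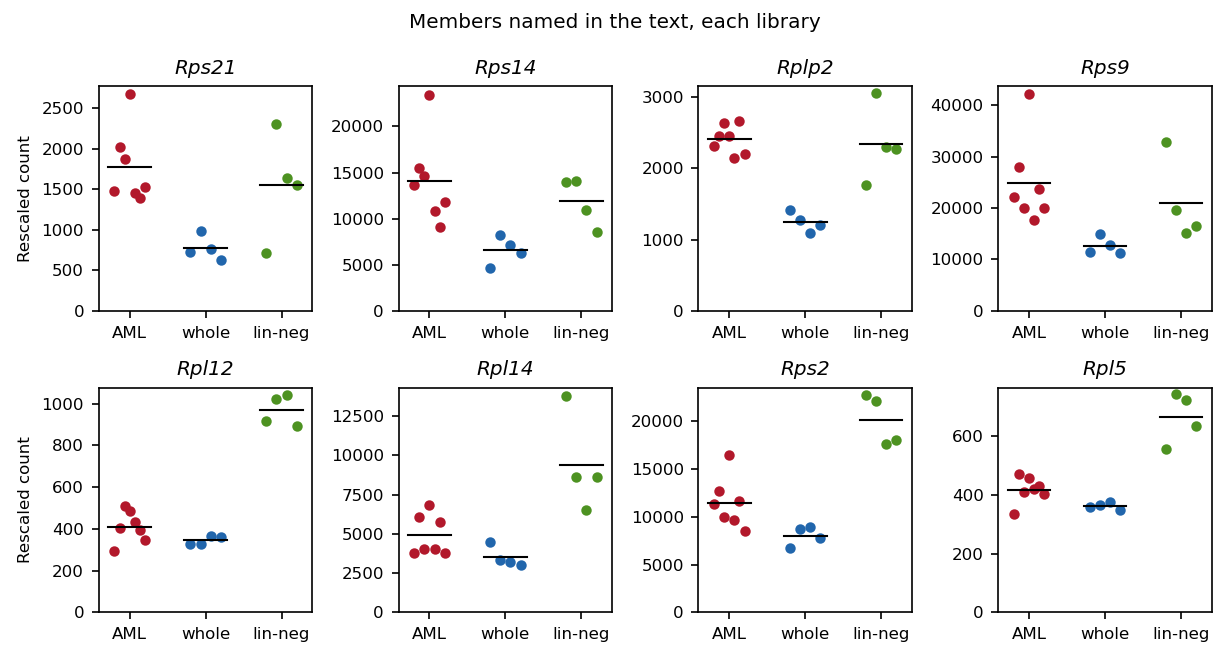
Rescaled counts of 8 ribosomal protein genes in each library, on a linear axis from 0; points are libraries and lines group means. The upper row shows genes in which AML lies above whole marrow (Rps21, Rps14, Rplp2, Rps9), the lower row genes in which AML lies below lineage-negative marrow (Rpl12, Rpl14, Rps2, Rpl5), apart from AML 4 in Rpl14.

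The mean level in AML lay between those of the 2 normal groups for 68 of the 78 genes. It was above both for 9, among them Rps9, Rps14, Rps21, Rpl19, Rpl35a, Rpl39, Rplp2 and Rpl3l, and below both for Rpl3 alone. These orders are counts of means. None of the 9 passed the test against both normal groups. For Rps9, Rps14, Rps21, Rplp2, Rpl35a and Rpl39 the sign of the difference from lineage-negative marrow turned under at least 1 alternative.

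**Figure D3:**
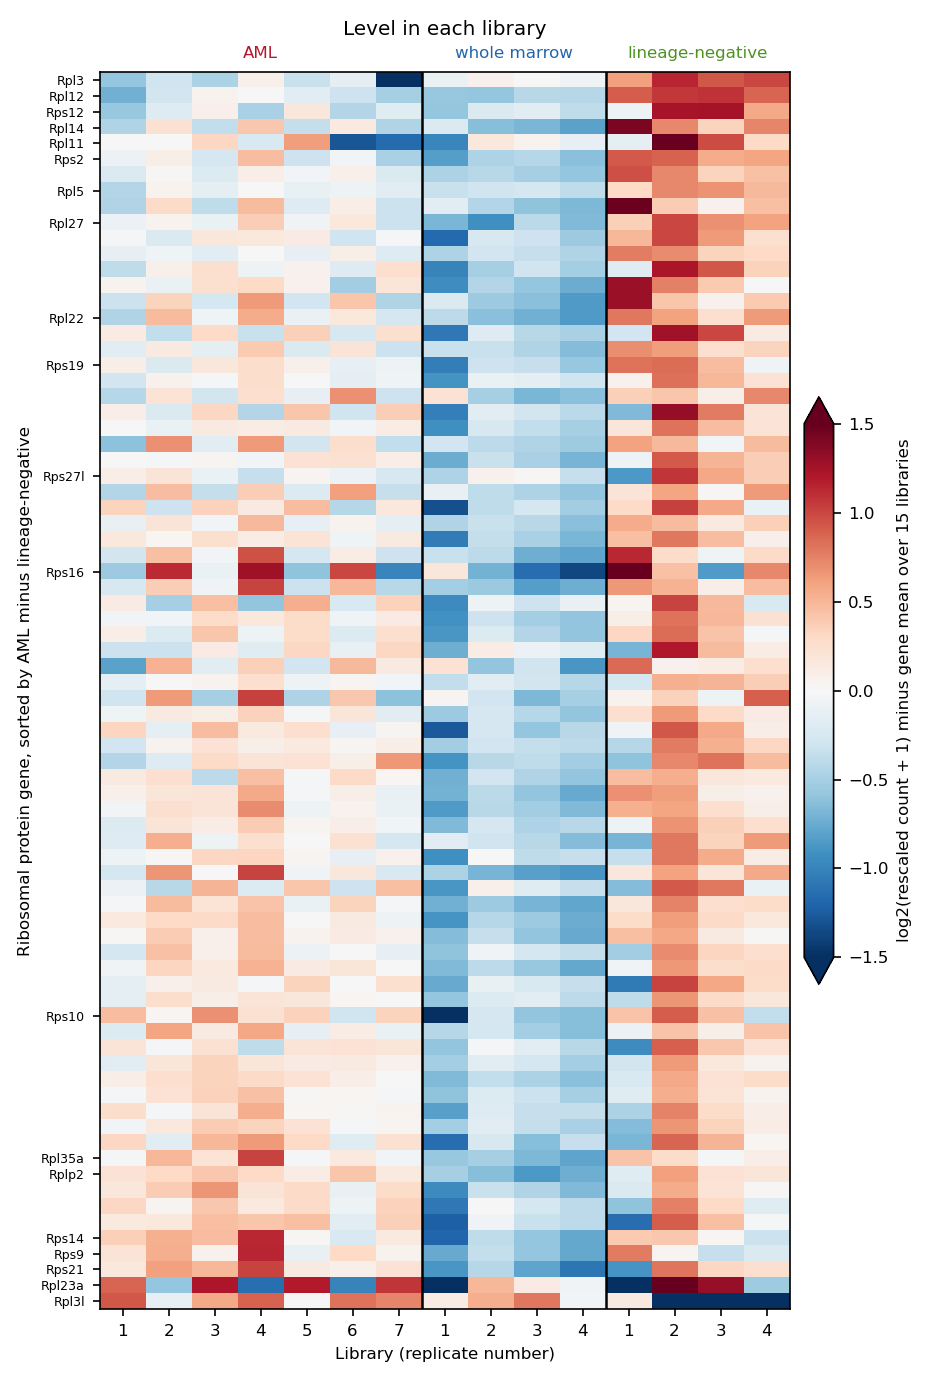
Levels of the 78 genes tested in the 15 libraries, as log2 of the rescaled count plus 1 minus the gene's mean over all libraries, clipped at 1.5 in either direction; rows are sorted by AML minus lineage-negative marrow, and some of the genes described in the text are labelled. Whole marrow is low for most rows and lineage-negative marrow 2 high, and Rpl23a, Rps16 and Rpl11 vary widely between libraries of 1 group.

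To see which members moved apart from the family, each library was centred on the mean log2 level of the 78 genes and the fit repeated. This removes any scaling between libraries. Most members then showed no called difference. For AML against whole marrow 4 were relatively higher (2.92% of all genes) and 2 relatively lower (45% of all genes). For AML against lineage-negative marrow these numbers were 4 (32.6% of all genes) and 7 (14.6%). For lineage-negative against whole marrow they were 3 (4.04%) and 2 (57.2%).

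Rps21 and Rplp2, as single rows, were relatively higher in AML than in either normal group. Rps21 stood 0.63 above the family's difference from whole marrow (adjusted p = 0.0112, limma) and 0.54 above that from lineage-negative marrow (adjusted p = 0.0241). Rplp2 stood 0.39 (adjusted p = 0.0219, limma) and 0.33 (adjusted p = 0.0483) above. With pseudogene values added to all members, Rps21 kept both calls, at 0.60 and 0.53, and Rplp2 lost both, at 0.19 (adjusted p = 0.51, limma) and −0.01 (adjusted p = 0.97). Rpl3 and Rpl5, as single rows, were relatively lower in AML than in either. Rpl5 was 0.36 below the family against whole marrow, a relative difference of −0.36 (adjusted p = 0.0269, limma), and −0.40 against lineage-negative marrow (adjusted p = 0.0164). With pseudogene values added Rpl5 kept both calls, at −0.46 and −0.35, and Rpl3 lost both, at 0.06 (adjusted p = 0.79, limma) and −0.37 (adjusted p = 0.067). Both comparisons share the AML libraries.
The other genes relatively lower against lineage-negative marrow were Rpl12 with −0.99, Rps12 with −0.71, Rpl14 with −0.65, Rps2 with −0.56 and Rpl27 with −0.39. Of these, Rpl12, Rpl14 and Rps2 kept their call with pseudogene values added. Rps14 with 0.52 and Rpl36 with 0.31 were relatively higher against whole marrow, and Rpl3l, at values near the floor of detection, was among the members relatively higher against lineage-negative marrow.

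The genes that moved most had promoters of several kinds, shown here because TOP mRNAs are recognised by the first bases of the transcript. RefSeq (build GRCm38.p6) had an entry for 60 of the 80 genes. For a gene with several annotated starts, the one furthest 5′ was taken, here and in the counts below. Whether that start is the one used in marrow was not measured. The last 40 bases before and the first 20 after the annotated start are printed 5′ to 3′, with the longest pyrimidine run between 10 bases before and 20 after the start in capitals. The first 4 genes are among the largest rises from whole marrow, and the last 4 among the genes lowest relative to lineage-negative marrow.
Rps21, chr2:180257339-180257398, + strand: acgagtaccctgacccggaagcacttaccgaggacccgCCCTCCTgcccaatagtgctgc
Rps10, chr17:27635225-27635284, - strand: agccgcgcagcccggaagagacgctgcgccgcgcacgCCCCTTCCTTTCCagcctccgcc
Rplp2, chr7:141447611-141447670, + strand: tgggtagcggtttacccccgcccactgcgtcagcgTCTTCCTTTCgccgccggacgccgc
Rps9, chr7:3704001-3704060, + strand: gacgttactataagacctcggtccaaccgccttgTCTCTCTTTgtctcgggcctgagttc
Rpl12, chr2:32961672-32961731, + strand: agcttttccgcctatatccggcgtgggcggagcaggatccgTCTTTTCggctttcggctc
Rpl14, chr9:120571477-120571536, + strand: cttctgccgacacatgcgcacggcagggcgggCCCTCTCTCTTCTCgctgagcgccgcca
Rps12, chr10:23787190-23787249, - strand: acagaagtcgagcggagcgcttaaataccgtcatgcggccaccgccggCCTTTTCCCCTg
Rps2, chr17:24720023-24720082, + strand: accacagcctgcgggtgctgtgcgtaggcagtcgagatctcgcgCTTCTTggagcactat
The runs were 7, 13, 10 and 9 bases long in Rps21, Rps10, Rplp2 and Rps9, and 7, 14, 11 and 6 in Rpl12, Rpl14, Rps12 and Rps2, so that long and short runs occurred on both sides.

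Among the 60 promoters, 20 (33.3%) had a pyrimidine run of at least 8 bases in this window, against 11% of all 17492 RefSeq promoters of the same length. The letters CTTTC occurred there on the sense strand in 23.3% of members and 3.4% of all promoters. In the full 300 bases, searched on both strands, CCGGAAG, the core bound by ETS-family factors, occurred in 40% and 11.9%. ATGGCGG, found in YY1 sites, occurred in 15% and 5.44%. GGGCGG, a GC box, occurred in 58.3% and 46.3%, TATAAA in 10% and 13.3%, and CCAAT in 31.7% and 39.2%. CTTTC is itself made of pyrimidines, so it can lie within a counted run, and matches to different motifs may share bases. These matches describe letters and not bound sites, and annotated starts were not measured here. The genes without an entry included Rpl17, Rpl21, Rpl23a, Rpl29, Rpl3, Rpl30, Rpl32, Rpl36, Rpl7, Rpl8, Rplp1, Rps14, Rps20, Rps27a and Rps29.

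Near-identical copies limit what can be said of single members. The table listed 237 named ribosomal protein pseudogenes, 6 of them annotated as protein-coding, and 57 of the 78 genes tested had at least 1. Reads that fit a gene and its processed copy may have been split between them, and the strand setting of the counting is not given in the sources used here. Pseudogenes without a ribosomal protein name were not included. Named pseudogenes held over 50% of the joint value of gene and copies for 24 members. When their values were added to their genes, 57 members were higher in AML than in whole marrow and 18 were lower in AML than in lineage-negative marrow, with medians of 0.58 and −0.27.

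Rpl3, close to the peptidyl transferase centre of the large subunit, changed most under this step. Alone, it was 866 to 3282 in AML with a median of 2481, and 2914, 3265, 3123 and 2996 in whole marrow. In lineage-negative marrow it was 4769.6, 6853, 5929 and 6217, above all AML libraries. The difference from lineage-negative marrow was −1.43 ± 0.25 (log2, SE; adjusted p = 0.000132, limma), and that from whole marrow −0.49 ± 0.25 did not pass the test (adjusted p = 0.136). Its 2 named pseudogenes held 85.5% of the joint value. With them AML had a mean of 22858 ± 3402 (SD, n = 7), above whole marrow at 14603 ± 1340.3 (SD, n = 4) and below lineage-negative marrow at 35638 ± 7284 (SD, n = 4). The differences became 0.64 (adjusted p = 0.0045, limma) and −0.63 (adjusted p = 0.0031). The rank of Rpl3 below both normal groups therefore held for the gene's own row only.

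Rps12 and Rpl27 lost their call against lineage-negative marrow when copies were added. Rps12 went from −0.98 (adjusted p = 0.00113, limma) to −0.63 (adjusted p = 0.093), with 92.5% of the joint value in 14 pseudogenes. Rpl27 went from −0.66 (adjusted p = 0.0012, limma) to −0.13 (adjusted p = 0.54), with 81.3% in 3. Rpl14 kept its call at −0.85 (adjusted p = 0.00023, limma), with 56.1% in 1 pseudogene. Rpl12 had 1.25% of its joint value in a named pseudogene and Rpl5 had 11%. Rpl11, Rps21, Rps14 and Rps9 had no named pseudogene.

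**Figure D4:**
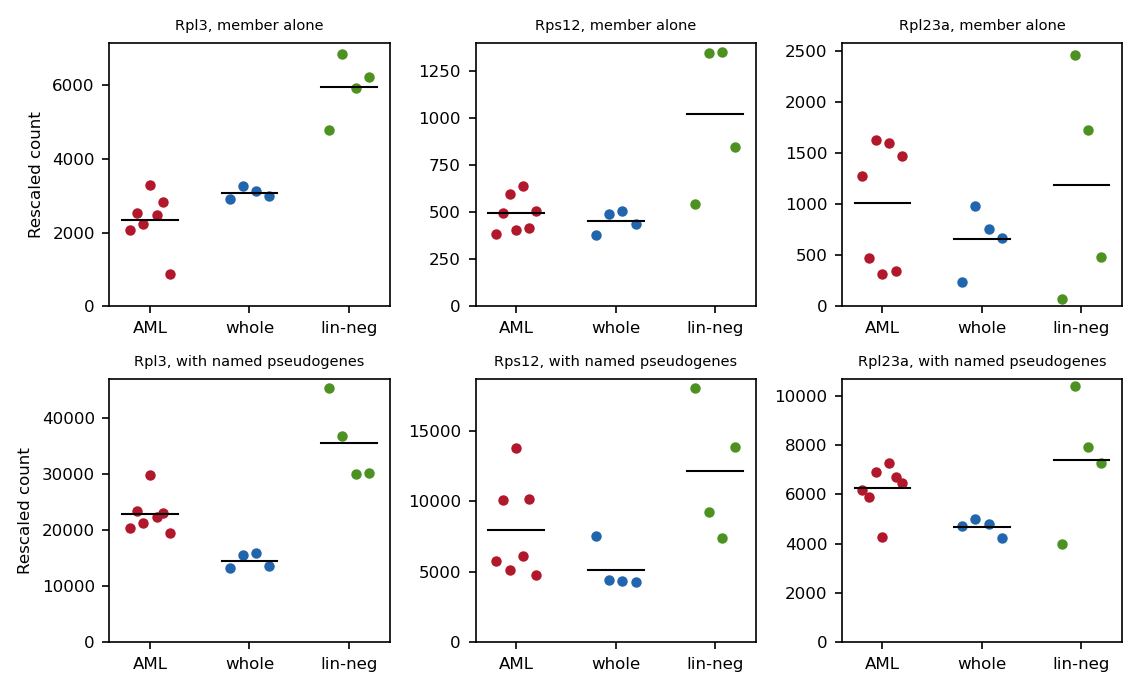
Rescaled counts of Rpl3, Rps12 and Rpl23a in each library, for the gene alone (top) and with its named pseudogenes added (bottom), on linear axes from 0; points are libraries and lines group means. The AML mean of Rpl3 lies below whole marrow in the top panel and above it in the bottom panel, and the spread of Rpl23a narrows.

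Some members varied between libraries of 1 group by more than the groups differed. The SD of log2 values within groups had a median of 0.34 over the 78 genes, against 0.40 over all genes tested, and exceeded 0.5 for 8 of them. Rpl23a, at the exit of the peptide tunnel, was the most variable, with an SD of 1.44. In AML it was 1278, 469, 1625, 319, 1599, 348 and 1472 in replicates 1 to 7, in whole marrow 234, 987, 760.0 and 674, and in lineage-negative marrow 74.4, 2463, 1727 and 485. AML 2, 4 and 6, whole marrow 1 and lineage-negative 1 and 4 were thus low in their groups. With its 6 named pseudogenes, which held 84.2% of the joint value, Rpl23a ran from 4286 to 7274 in AML, from 4224 to 4991 in whole marrow and from 4003 to 10379 in lineage-negative marrow. Rps16 varied by an SD of 0.91 and Rpl11 by 0.67. With its named pseudogene added, Rps16 was high in the same libraries in which Rpl23a was low. It was 9641, 12531 and 9680 in AML 2, 4 and 6, and 2237 to 4558 in the other AML libraries. Whole marrow 1 had 5696, against 1981 to 2681 in the others. Lineage-negative 1 and 4 had 13036 and 8904, and 2 and 3 had 6434 and 2497. What sets these libraries apart was not tested, and no alternative left all of them out together. Rpl29, with 0.15, and Rpl5, also with 0.15, were the steadiest.

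Levels per kilobase of exon differed widely between members, although each protein is needed in about equal number. In AML the rescaled count per kilobase was highest for Rplp1, at 28203 ± 11167 (SD, n = 7), Rplp0, at 18105 ± 3226, and Rps15, at 15339.6 ± 2490.1. It was lowest, among the genes tested, for Rpl3l, at 8.32, Rps27, at 76.1, Rpl5, at 106, and Rpl12, at 114. The exonic lengths are unions over annotated transcripts, from 383 to 6270 bases, and are long for Rpl5 (3920 bases) and Rpl12 (3598 bases). The levels are those of each gene's own row, and named pseudogenes held from 0% (Rplp1) to 97.1% (Rpl10) of the joint value. For Rps27, Rpl5 and Rpl12 they held 2.6%, 11% and 1.25%. The parts of annotated length and of pseudogenes in this order were not tested.

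Genes of inherited or acquired bone marrow failure were looked at one by one. Of 9 described here, Rps19, Rps24, Rps10, Rpl35a and Rps14 were higher in AML than in whole marrow. Rps7, Rps26, Rpl5 and Rpl11 did not pass that test, at 0.44, 0.40, 0.20 and −0.02. Rps19, the gene most often mutated in Diamond-Blackfan anaemia, had a mean of 5128 ± 607 in AML (SD, n = 7), 3440.3 ± 729 in whole marrow and 7357 ± 1930.0 in lineage-negative marrow (SD, n = 4 each). It exceeded whole marrow by 0.59 ± 0.17 (log2, SE; adjusted p = 0.0122, limma) and differed from lineage-negative marrow by −0.49 ± 0.17 (adjusted p = 0.0262). The first call was lost without whole marrow 1, and the second under 6 alternatives. Rps24 was 0.65 above whole marrow (adjusted p = 0.0477, limma), and 16 alternatives ended that call. Rpl22, whose loss is known from T-cell leukaemia, was 0.69 above whole marrow (adjusted p = 0.0053, limma) and −0.53 relative to lineage-negative marrow (adjusted p = 0.0201), the latter lost under 5 alternatives. Rpl23, with a log2 difference of 0.39 from whole marrow and −0.40 from lineage-negative marrow, passed neither test.

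Paralogs known from particular tissues were at low levels, apart from Rps27l. Rpl3l, the muscle form of Rpl3, was 7.93 to 17.5 in AML, 9.5, 13.1, 15.9 and 8.42 in whole marrow, and 9.71, 2.25, 2.3 and 1.13 in lineage-negative marrow. A count of 3 reads corresponds to 1.70 to 5.70 rescaled counts, so 3 of the 4 lineage-negative libraries lay near this floor and no fold is given. Rpl10l, a testis form, was at most 1.15 in AML, and Rpl39l at most 6.57 in AML and 13.2 in whole marrow. Rps27l, a p53 target, was expressed at 635 ± 83.5 in AML (SD, n = 7), 588 ± 105 in whole marrow and 895 ± 422 in lineage-negative marrow (SD, n = 4 each). It passed no test, and its partner Rps27, at 79.4 ± 24.3 in AML, passed none either.

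Ribosomal protein genes outside the naming rule behaved similarly in number. Of 8, which included Rps3a1, Fau, Rpl22l1, Rpl7l1, Rpl36al, Rps27rt and Rpl9-ps6, 5 (62.5%, against 17.9% of all genes) were higher in AML than in whole marrow and none lower, at a median of 0.60. Against lineage-negative marrow 3 (37.5%, against 24.8%) were lower and 1 higher. The higher one was Fau, the precursor of Rps30, at 0.75 (adjusted p = 0.0012, limma). Of the 237 named pseudogenes, which include Rpl9-ps6, 121 were tested. Against whole marrow 40 (33.1%) were higher in AML and 1 lower, where 17.9% of all genes were higher and 20.4% lower. Against lineage-negative marrow none was higher and 12 (9.92%) were lower, a smaller share than the 24.8% of all genes.

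The mitochondrial ribosome was compared because it is built from a separate set of nuclear genes. Of 78 mitochondrial ribosomal protein genes, 21 were higher and 1 lower in AML than in whole marrow, at a median of 0.25. The 21 are 26.9% of the list, where 17.9% of all genes were called higher. Against lineage-negative marrow 2 were higher and 45 (57.7%, against 24.8% of all genes) lower in AML, at a median of −0.50. Lineage-negative marrow exceeded whole marrow in 58 of the 78 (74.4%, against 24.7% of all genes), at a median of 0.68. No test between the lists was made.

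Among 22 translation genes with TOP mRNAs, 11 (50%, against 17.9% of all genes) were higher in AML than in whole marrow and none lower, at a median of 0.38. Against lineage-negative marrow 10 (45.5%, against 24.8% of all genes) were lower and 2 higher, at a median of −0.33. Those 2 were Fau and Tpt1, with Tpt1, a growth-related TOP mRNA, at 0.73 (adjusted p = 0.0011, limma). Eef1g, of the elongation factor that reloads Eef1a with GTP, differed by −1.42 (adjusted p = 3.85e-06, limma). Npm1, a nucleolar chaperone of ribosome assembly, differed by −1.40 (adjusted p = 1.19e-06, limma) and Eif4b, a helper of the scanning helicase, by −0.92 (adjusted p = 1.08e-06, limma).

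Dedicated carriers of single ribosomal proteins were lower in AML than in lineage-negative marrow. Of 7 genes, 6 (85.7%, against 24.8% of all genes) were lower and none higher, at a median of −0.89. All 7 were higher in lineage-negative than in whole marrow, where 24.7% of all genes were. Grwd1, a carrier of Rpl3, had a log2 difference of −1.78 (adjusted p = 3.13e-07, limma), Heatr3, which carries Rpl5 into the nucleus, −1.61 (adjusted p = 5.5e-08), and Tsr2, the carrier of Rps26, −1.24 (adjusted p = 1.28e-07). Pdcd2l was the exception, at 0.12. Against whole marrow Tsr2 and Pdcd2l (28.6% of the list, against 17.9% of all genes) were higher in AML, at 0.47 and 0.69. The other 5 carriers did not pass the test of AML against whole marrow.

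Of 12 genes of mTORC1 and TOP control, 6 were lower and 1 higher in AML than in lineage-negative marrow, and 3 were higher and none lower than in whole marrow. The 6 are 50% of the list, against 24.8% of all genes, and the 3 are 25%, against 17.9%. Larp1, which binds the TOP motif, had a mean of 4474 in AML, 3124 in whole marrow and 8062 in lineage-negative marrow. It differed by 0.53 (adjusted p = 0.00799, limma) and by −0.84 (adjusted p = 9.53e-05) respectively. Mtor itself differed by 0.24 (adjusted p = 0.0688, limma) and −0.42 (adjusted p = 0.00216).

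**Figure D5:**
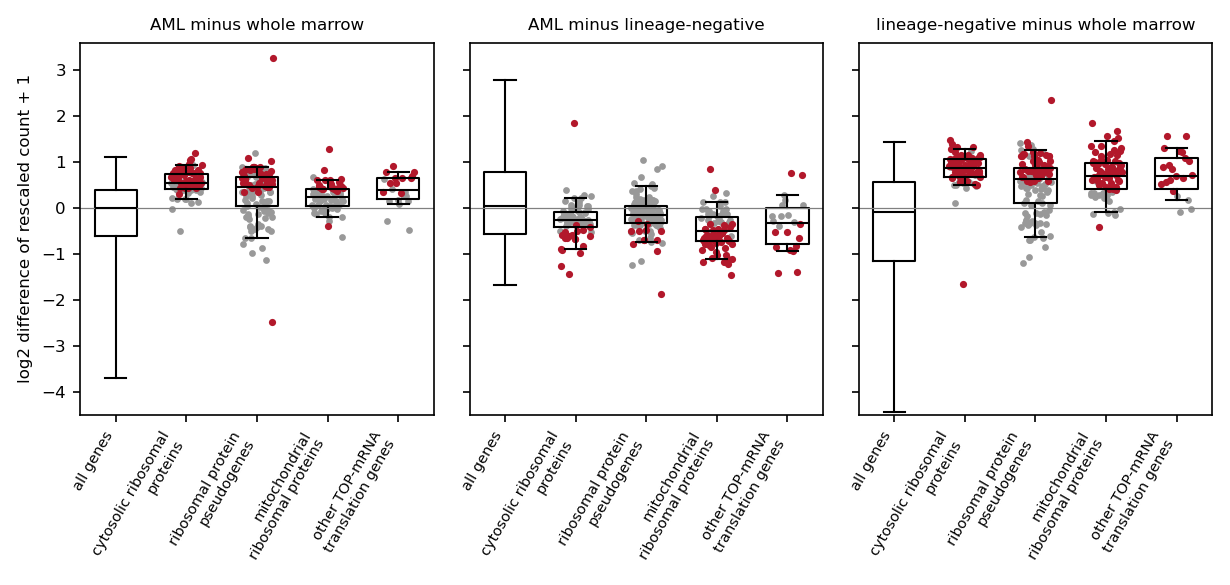
Fitted log2 differences of rescaled count plus 1 in the 3 comparisons for all genes and 4 lists; boxes show quartiles, whiskers the 5th and 95th percentiles, and points single genes, red where the adjusted p was under 0.05. Cytosolic ribosomal protein genes have medians of 0.55, −0.27 and 0.88.

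The members lie on 19 chromosomes, with 14 on chromosome 7 and 4 on the X chromosome. A small nucleolar RNA gene lies inside 29 of the 78 genes tested. These had a median log2 difference of 0.55 from whole marrow, with 17 called higher, and −0.31 from lineage-negative marrow, with 10 called lower. The 49 without one had medians of 0.55 and −0.27, with 31 called higher and 9 called lower. Over all genes tested, 17.9% were called higher in AML than in whole marrow and 24.8% lower than in lineage-negative marrow. Members with at least 1 named pseudogene (57) had medians of 0.55 and −0.25, and those with none (21) had 0.55 and −0.32.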

How the data were processed

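Per the labels, total RNA was extracted with TRIzol and sequenced with the TruSeq Stranded Total RNA protocol. STAR, Partek, DESeq2 and build mm10 are named in the submitters' processing notes, without versions. The deposited values have the unit signal: normalized counts, for which the authors divided counts per gene by a DESeq2 size factor of the poscounts type, per the name of the table. Groups and replicate numbers came from sample titles. All 15 columns were used. Low values were whole multiples of 1 read for 81.9% to 87.2% of values within a tolerance of 0.02, so whole reads were not recovered and no count test was run. Values after ± are SDs or limma SEs and measure the spread between libraries, whereas floors cover counting error only.

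Gene starts in the table matched a GRCm38 annotation for 861 of 38066 genes and lengths for 37557, so no coordinate of the table is printed, and exon lengths and small nucleolar RNA positions were taken from that annotation (GENCODE M21).

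Here the values were rescaled by TMM on the genes kept (trims of 0.3 and 0.05), and log2 values with a pseudocount of 1 entered 1 limma fit of 3 group means (limma 3.58.1, R 4.3.3, two-sided, mean-variance trend). A difference is on the scale of log2(rescaled count + 1), which understates changes of low genes. A gene is called at an adjusted p under 0.05. On simulated data for AML against whole marrow over 18941 genes, 14 of 100 genes changed by 0.7 and 77 of 100 changed by 1.5 were called, and 9 of 18741 unchanged genes. The simulation took its spreads from values before rescaling and changed far fewer genes than were called in the data, which makes the adjusted p stricter.

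The rule for named genes took, in each comparison, 4 members from either end of the ranked differences (mean of at least 100), plus tissue paralogs, marrow failure genes, Rpl22 and Rpl23. Others were named after their values were seen. Some genes that this rule takes are not reported here. The members and lists were chosen with earlier results of these data known. Alternatives were scalings, pseudocounts, filters, pairwise fits, a robust model, array weights, a replicate block, leaving out each library and 4 chosen after seeing the data: TMM over all rows, pseudogene values added (every gene with a -ps name of a member, whatever its annotated class), and 2 sets of libraries left out. Python 3.11.15 with pandas 2.3.3 was used for annotation and promoters.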

Additional observations from a re-analysis of the deposited data

Results flagged for a closer look

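In 4 of 96 groups of libraries tested, 1 library lay far from the others of its group. Chance gives about 1 in 20 such groups. AML 4 was high for Rps9, at 42197 against a mean of 21929 in the other AML libraries, and for Rpl35a, at 6084 against 3303. This library also had the highest share of miscellaneous RNA, 30.2%. Whole marrow 1 was high for Rpl23, at 2021 against a mean of 1147 in the others, although it was under its group mean for most members. Lineage-negative 1 was high for Rpl3l, at 9.71 against 1.89, both low values.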

How the results depend on the processing

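The direction of each median held in all alternatives. With the authors' own scaling, without rescaling, 74 members were higher in AML than in whole marrow at a median of 1.23, 11 were lower in AML than in lineage-negative marrow, and lineage-negative marrow had 0 lower than whole marrow at a median of 1.58. Quantile scaling gave 38 lower in AML than in lineage-negative marrow and 0 lower in lineage-negative than in whole marrow, and turned Rpl3l to 0.73 in the latter. Keeping genes with a mean of at least 50 gave 0 higher in AML than in lineage-negative marrow and 0 lower in lineage-negative than in whole marrow, because the filter removes Rpl3l. Array weights gave 1 member lower in AML than in whole marrow and 2 higher than in lineage-negative marrow. Adding pseudogene values turned Rpl3 to 0.64 in AML against whole marrow. Relative to the family it gave 2 members higher in AML than in whole marrow and 1 lower in lineage-negative than in whole marrow. Leaving out AML 4, whole marrow 1 and lineage-negative 1 gave 33 lower in AML than in lineage-negative marrow. Without AML 5 and 6 the members higher in AML than in whole marrow were 39, and with TMM over all rows 62. Shares within protein-coding genes had means of 2.61%, 1.48% and 3.97% in AML, whole and lineage-negative marrow, and leaving haemoglobin out gave 1.39% in whole marrow. For other moved values the cause was not tested.

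Leaving out single libraries, members lower in AML than in lineage-negative marrow ranged from 11 to 28. Relative to the family, members higher in AML than in whole marrow ranged from 1 to 5 and lower from 1 to 4. Against lineage-negative marrow these were 2 to 7 and 4 to 7, and for lineage-negative against whole marrow 1 to 4 and 1 to 3. The median difference from lineage-negative marrow ranged from −0.36 to −0.12.

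Libraries with the same number share only that number: 2 of 12 same-number pairs had deviations correlated over 0.1 (−0.27 to 0.17). With a replicate block, 46 members were higher in AML than in whole marrow, 13 lower than in lineage-negative marrow and 66 higher in lineage-negative than in whole marrow. Relative to the family, the replicate block gave 4 lower in AML than in lineage-negative marrow and 1 lower in lineage-negative than in whole marrow. Of 90 results for named genes, 44 kept their call in every alternative. The simulated recovery of small changes, 14 of 100, does not give the sensitivity for the members, because the simulation's spreads and number of changed genes differed from the data. A missing call does not show that a gene was unchanged.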
